A study of Rattus norvegicus with 22 samples.

Results

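The genes described here encode enzymes that take pyruvate into the citrate cycle, run the cycle, and break down the branched-chain amino acids leucine, isoleucine and valine, together with the carboxylase steps that bring their carbon into the cycle. They were taken from a list of 35 enzyme genes. Of these, 33 were found among the 17334 genes measured, and all 33 passed the filter on low counts that left 12867 genes for testing. They comprised 4 genes of the pyruvate dehydrogenase complex, 14 genes of the citrate cycle and 15 of the 17 listed genes of branched-chain amino acid breakdown. Acad8 and Mmut were not analysed here.

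Whole left kidneys of 22 male PKD/Mhm (Cy/+) rats, collected at 8 months of age, were sequenced. The Cy/+ rats are heterozygous for a spontaneous missense mutation of Anks6, the gene of SamCystin, and develop polycystic kidneys. All groups carried this mutation, the untreated group included, and no wild-type rat was analysed here. The untreated group had 6 rats. Human adipose-derived stromal cells (ASC) were given once a month for 6 months, either intraperitoneally (i.p. ASC, 6 rats) or intravenously (i.v. ASC, 6 rats), and a further 4 rats received the medium conditioned by these cells (ASC-derived CM). The labels give no route for the medium, the paper's text is not uniform on it, and no sham injection of the untreated rats is described in the sources used here.

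Pyruvate dehydrogenase joins glycolysis to the citrate cycle by turning pyruvate into acetyl-CoA inside the mitochondrion. The cycle oxidises this acetyl group and feeds the respiratory chain, and in the proximal tubule it also supplies and consumes the intermediates of ammonia handling, citrate reabsorption and gluconeogenesis. Branched-chain amino acids lose their amino group first, are then committed by the branched-chain ketoacid dehydrogenase, and end as acetyl-CoA, acetoacetate or succinyl-CoA. The proximal tubule is rich in mitochondria and is a main site of these pathways in the kidney. In whole kidney RNA, fewer cells of a type and less RNA per cell cannot be told apart.

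Levels are given as TPM, a transcript's share of the RNA corrected for its length, so that genes can be set side by side. Total counts were 12195682 to 14734772 per rat. A few rats stood apart from the rest, and they were set apart after the data were seen. Aldh6a1, the last dehydrogenase of valine breakdown, was at 508 TPM in i.p. ASC rat 1, 492 TPM in i.v. ASC rat 1, 488 TPM in ASC-derived CM rat 1 and 430 TPM in i.p. ASC rat 3, against 97.7 to 299 TPM in the other 18 rats. These 4 rats were picked by this measured level and are not a group of the study, so nothing was tested between them and the others. Comparisons and slopes are given with and without them. Of the 32 members other than Aldh6a1, 17 had all 4 of these rats above all 18 others, and no member had all 4 below them. Of all 12867 genes, 5.72% had the 4 above the 18. Their animal numbers were 2, 3, 5 and 7 of numbers running from 1 to 24. Animals 1, 6 and 8, with numbers close to these, were at the low end of Aldh6a1, with 124, 128 and 97.7 TPM. Whether the numbers mark an order of breeding, treatment or extraction is not stated in the sources used here.

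**Figure D1:**
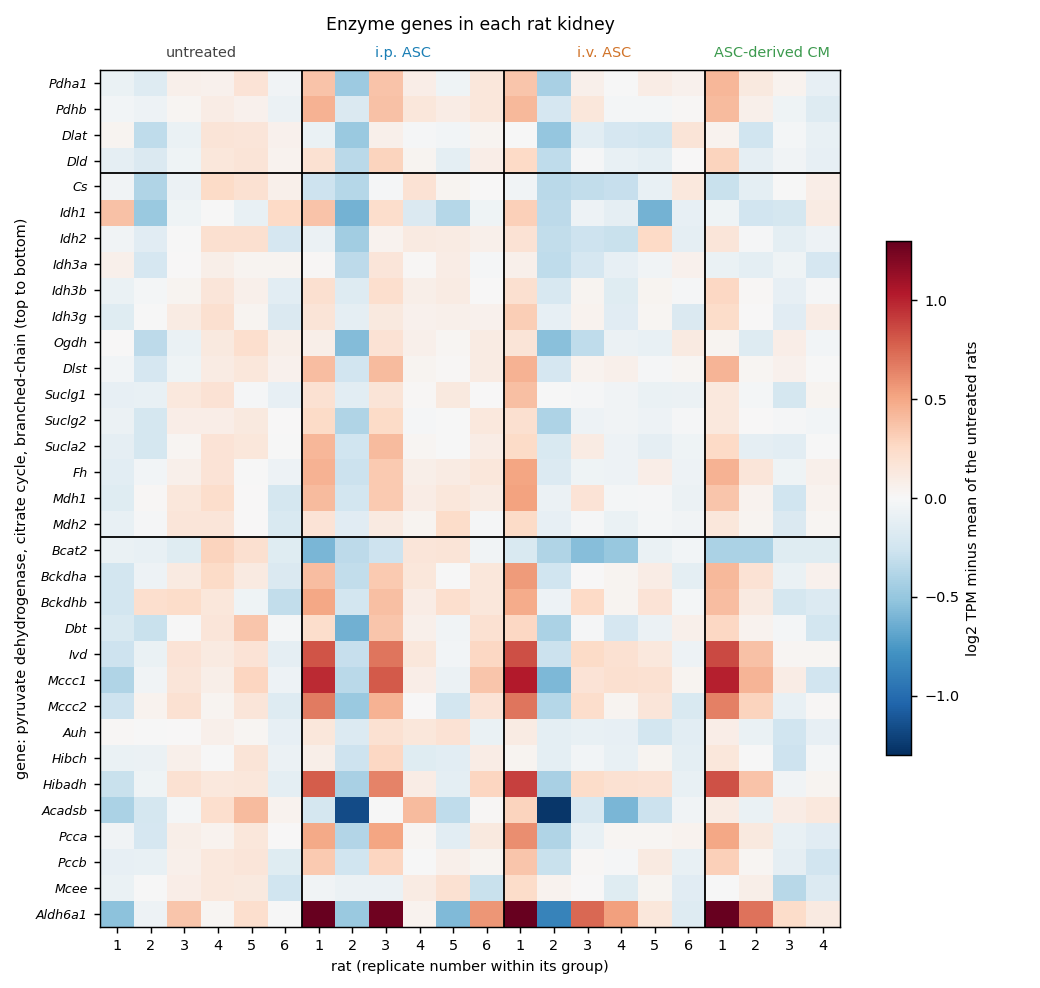
Level of each of the 33 genes in each of the 22 rats, as log2 TPM minus the mean of the 6 untreated rats, with pyruvate dehydrogenase, citrate cycle and branched-chain genes separated by horizontal lines and groups by vertical lines. Rats 1 and 3 of i.p. ASC, rat 1 of i.v. ASC and rat 1 of ASC-derived CM form warm columns, strongest in Aldh6a1, Mccc1, Ivd and Hibadh, while Bcat2 is below the untreated mean in the same 4 rats.

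Among the subunits of the pyruvate dehydrogenase complex, Pdha1, the E1 alpha subunit, had the highest level with 242 ± 37.1 TPM (SD, n = 22), and Dlat, the acetyltransferase core, the lowest with 49.5 ± 6.23 TPM (SD, n = 22). Pdhb, the E1 beta subunit, was at 133 ± 18.7 TPM (SD, n = 22). Dld, the lipoamide dehydrogenase that this complex shares with the α-ketoglutarate and branched-chain ketoacid dehydrogenases, was at 119 ± 14.9 TPM (SD, n = 22). The coefficient of variation over all rats, the SD as a percent of the mean, was between 12.5% and 15.4% for these 4 genes.

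The citrate cycle genes had the higher levels of the 3 blocks, with a median of 214 TPM, against a median of 19.8 TPM over all genes tested. Mdh1, the cytosolic malate dehydrogenase, led the list with 633 ± 95.6 TPM (SD, n = 22), followed by Idh2, the mitochondrial NADP-dependent isocitrate dehydrogenase, with 374 ± 49.4 TPM (SD, n = 22). Mdh2, the mitochondrial malate dehydrogenase, was at 360 ± 32.8 TPM (SD, n = 22). The spreads of Idh2 and Mdh2 overlapped, and both lay below the lowest Mdh1 value of 498 TPM in all 22 rats. Idh3a, the catalytic subunit of the NAD-dependent isocitrate dehydrogenase, was lowest in the block with 108 ± 10.1 TPM (SD, n = 22), while its partner subunits Idh3b and Idh3g were at 217 ± 20.4 and 234 ± 23.6 TPM (SD, n = 22). Cs, citrate synthase, the entry step, was at 145 ± 19.8 TPM (SD, n = 22).

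Branched-chain genes were lower, with a median of 91.2 TPM, and varied more between rats. Aldh6a1 had the highest mean, 246 ± 125 TPM (SD, n = 22), and the widest spread of the 33 genes, with a coefficient of variation of 50.8%. Hibch, the valine pathway hydrolase just upstream of Hibadh, had the lowest mean, 26.9 ± 2.54 TPM (SD, n = 22), with a coefficient of variation of 9.43%. The next most variable members were Mccc1, the biotin-bearing subunit of the leucine carboxylase, at 33.4%, Hibadh, a valine dehydrogenase, at 27.4%, Ivd, the isovaleryl-CoA dehydrogenase of leucine breakdown, at 26.4%, and Acadsb, an acyl-CoA dehydrogenase of isoleucine breakdown, at 25.4%. The median over all genes tested was 18.3%, and 14.1% over the 33 members. Neighbouring steps of one pathway thus differed in how far they varied between rats.

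The 90 bases before the annotated transcription start are printed for 4 of the 5 genes with the largest slopes on Slc34a1 described below (Aldh6a1, Ivd, Hibadh and Mccc1) and for the pair with the smallest (Bcat2 and Mcee). Whether these bases bear on the differences between rats was not tested. The sequences come from the RefSeq promoter table for rat assembly GRCr8 and read 5′ to 3′ on the strand of the gene. Capitals mark the GC box, searched by the letters GGGCGG, and the CCAAT box, searched by those 5 letters, on either strand, so that their reverse complements are in capitals too. Aldh6a1 lies on chromosome 6 (chr6:109829726-109829815, minus strand), Ivd on chromosome 3 (chr3:126305494-126305583, plus strand), Hibadh on chromosome 4 (chr4:83077820-83077909, minus strand) and Mccc1 on chromosome 2 (chr2:120779242-120779331, minus strand). Bcat2 (chr1:105179049-105179138, plus strand) and Mcee (chr1:127376263-127376352, plus strand) lie on chromosome 1.
Aldh6a1: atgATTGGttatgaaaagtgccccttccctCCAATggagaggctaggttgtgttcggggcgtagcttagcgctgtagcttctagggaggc
Ivd: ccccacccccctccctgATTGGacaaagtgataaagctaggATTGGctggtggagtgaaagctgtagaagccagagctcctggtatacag
Hibadh: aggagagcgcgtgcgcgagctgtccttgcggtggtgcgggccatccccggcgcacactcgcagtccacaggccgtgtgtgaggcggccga
Mccc1: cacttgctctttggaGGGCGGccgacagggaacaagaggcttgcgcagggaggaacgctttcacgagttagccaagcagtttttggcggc
Bcat2: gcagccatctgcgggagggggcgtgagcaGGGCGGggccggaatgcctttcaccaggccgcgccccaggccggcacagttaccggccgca
Mcee: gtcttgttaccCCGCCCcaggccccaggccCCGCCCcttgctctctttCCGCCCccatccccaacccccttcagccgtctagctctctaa

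Within these 90 bases, Aldh6a1 and Ivd each held 2 CCAAT boxes and no GC box, Mcee held 3 GC boxes, Bcat2 and Mccc1 held 1 GC box each, and Hibadh held neither. Over the 250 bases before the start, which were available for 30 of the 33 members, the GC box was found in 20 members, or 66.7%, against 32.4% of 27457 promoters in the table. The CCAAT box was found in 15 of the 30, against 34.3% of all promoters, and the TATA box, searched as TATAAA, in Dld alone, or 3.33%, against 13.1%. The sequence TCAAGGTCA, a site of the estrogen-related receptors, was in none of the 30, against 0.368% of all promoters. The core GCGCATGCG of the nuclear respiratory factor 1 element was in 1, Pccb, or 3.33%, against 1.49%. Median GC content was 60.6% in the members and 52.0% over all promoters. These are letter matches only and say nothing of binding. The first 3 of these motifs were added after the data were seen.

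The first comparison asked whether the enzyme genes differed between treated and untreated kidneys. No member passed the threshold of an adjusted p below 0.05 (edgeR's quasi-likelihood test, Benjamini-Hochberg adjustment over all genes tested) in any of the 4 comparisons, and the share of all 12867 genes that did was 0.0% in each. Without adjustment, p was below 0.05 for 0 members after i.p. ASC, 0 after i.v. ASC, 1 after ASC-derived CM and 0 between the ASC routes, and for 500, 1133, 849 and 281 of all genes. DESeq2 called 0, 22, 5 and 21 of all genes in the same comparisons, and no member.

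The fitted differences lay mostly on one side without passing the test. After i.p. ASC, 31 of 33 members had a fitted change above 0, with a median of 0.17 on the log2 scale, where 46.2% of all genes were above 0 with a median of -0.014. After i.v. ASC, 27 members were above 0 with a median of 0.11, against 47.5% of all genes and a median of -0.011. After ASC-derived CM, 26 were above 0 with a median of 0.099, against 49.1% of all genes and a median of -0.003. These 3 comparisons share the untreated rats. Between the routes, i.v. minus i.p. ASC, 2 members were above 0 with a median of -0.059, against 45.9% of all genes.

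The sides depended on the 4 rats that stood apart, on the covariates and on the scale. Without these rats, 15, 21 and 10 members were above 0 after i.p. ASC, i.v. ASC and ASC-derived CM, with medians of -0.004, 0.05 and -0.04. Between the routes 25 were then above 0. All 4 were treated rats picked for a high level of a member, so the shift without them is in part set by that choice. On log2(TPM + 1), tested by limma-trend, 23, 16 and 21 members were above 0 with medians of 0.07, -0.006 and 0.02, while the median of all genes shifted to -0.098, -0.117 and -0.066. Relative to that shift the members stayed higher. With the animal number as a covariate, 27, 10 and 22 members were above 0. With Slc34a1 as a covariate, 29 members were above 0 after i.p. ASC with a median of 0.12, 27 after i.v. ASC with a median of 0.09, and 15 after ASC-derived CM with a median of -0.008.

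In the pyruvate dehydrogenase complex, Pdhb had the smallest p after i.p. ASC. Its lowest, median and highest levels were 119, 125 and 134 TPM in untreated rats and 110, 139 and 172 TPM after i.p. ASC. The fitted log2 change was 0.29 (SE 0.14, adjusted p = 0.771). The i.p. ASC values enclosed the untreated ones. Dlat, in the same complex, was at 41.4 to 58.4 TPM in untreated rats and 37.2 to 54.6 TPM after i.p. ASC, with full overlap.

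In the citrate cycle, Mdh1 ran from 508 to 700 TPM with a median of 599.9 TPM in untreated rats, from 507 to 795 TPM with a median of 653 TPM after i.p. ASC, and from 565 to 856 TPM with a median of 587 TPM after i.v. ASC. The 4 ASC-derived CM rats were at 765, 616, 498 and 617 TPM. Every group overlapped the others, with its highest rat among the 4 that stood apart where it held one. Sucla2, the ATP-forming succinyl-CoA synthetase beta subunit, was named for the comparison of routes. Its lowest, median and highest levels were 91.9, 115 and 149 TPM after i.p. ASC and 96.1, 106 and 131 TPM after i.v. ASC, a log2 difference of -0.13 (SE 0.14, adjusted p = 1.0). Cs had medians of 153, 151 and 133 TPM in untreated, i.p. ASC and i.v. ASC rats and stood at 124, 139, 151 and 161 TPM after ASC-derived CM. The rat with the lowest Cs in this last group was the one with the highest Aldh6a1.

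For branched-chain breakdown, Aldh6a1 had the largest fitted changes. It was at 124, 180 and 230 TPM (lowest, median and highest) in untreated rats, 120, 225 and 508 TPM after i.p. ASC, and 97.7, 228 and 492 TPM after i.v. ASC. The ASC-derived CM rats were at 488, 292, 211 and 194 TPM. Rats of each treated group lay both within the untreated range and far above it. The fitted log2 changes from untreated were 0.59 after i.v. ASC (SE 0.40, adjusted p = 0.55) and 0.80 after ASC-derived CM (SE 0.44, adjusted p = 0.717).

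Ivd showed the same shape. It was at 133, 162 and 182 TPM (lowest, median and highest) in untreated rats and at 130, 186 and 282 TPM after i.p. ASC, a log2 change of 0.42 (SE 0.23, adjusted p = 0.771). After ASC-derived CM it was at 291, 208, 163 and 163 TPM, a log2 change of 0.45 (SE 0.25, adjusted p = 0.719). Neither difference exceeded the spread between rats. Bckdhb, the E1 beta subunit of the branched-chain ketoacid dehydrogenase, was at 81.4, 105 and 119.7 TPM in untreated rats and 97.1, 109 and 141 TPM after i.v. ASC, with a log2 change of 0.25 (SE 0.17, adjusted p = 0.555).

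Bcat2, the mitochondrial aminotransferase that opens the pathway, went to the other side. Its lowest, median and highest levels were 117, 123 and 160 TPM in untreated rats and 89.4, 107 and 127 TPM after i.v. ASC, a log2 change of -0.18 (SE 0.09, adjusted p = 0.523). The ASC-derived CM rats were at 98.1, 98.6, 117 and 118 TPM, a log2 change of -0.22 (SE 0.10, adjusted p = 0.711). This last difference had the one unadjusted p below 0.05 among the members, 0.0404 by edgeR's test. In both comparisons the ranges of treated and untreated rats overlapped. Between the routes the log2 difference of Bcat2, i.v. minus i.p. ASC, was -0.12 (SE 0.09, adjusted p = 1.0).

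Auh, the hydratase of the leucine pathway, was at 85.6, 93.2 and 96.8 TPM (lowest, median and highest) in untreated rats, 81.8, 102 and 106 TPM after i.p. ASC, and 78.2, 85.4 and 99.4 TPM after i.v. ASC. Its log2 change after i.p. ASC was 0.17 (SE 0.10, adjusted p = 0.771), and the difference between the routes was -0.16 (SE 0.10, adjusted p = 1.0). All 3 groups overlapped. Hibch hardly moved in level, with medians of 26.5, 26.8 and 26.1 TPM in untreated, i.p. ASC and i.v. ASC rats and values of 30.3, 27.2, 22.6 and 26.8 TPM after ASC-derived CM.

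**Figure D2:**
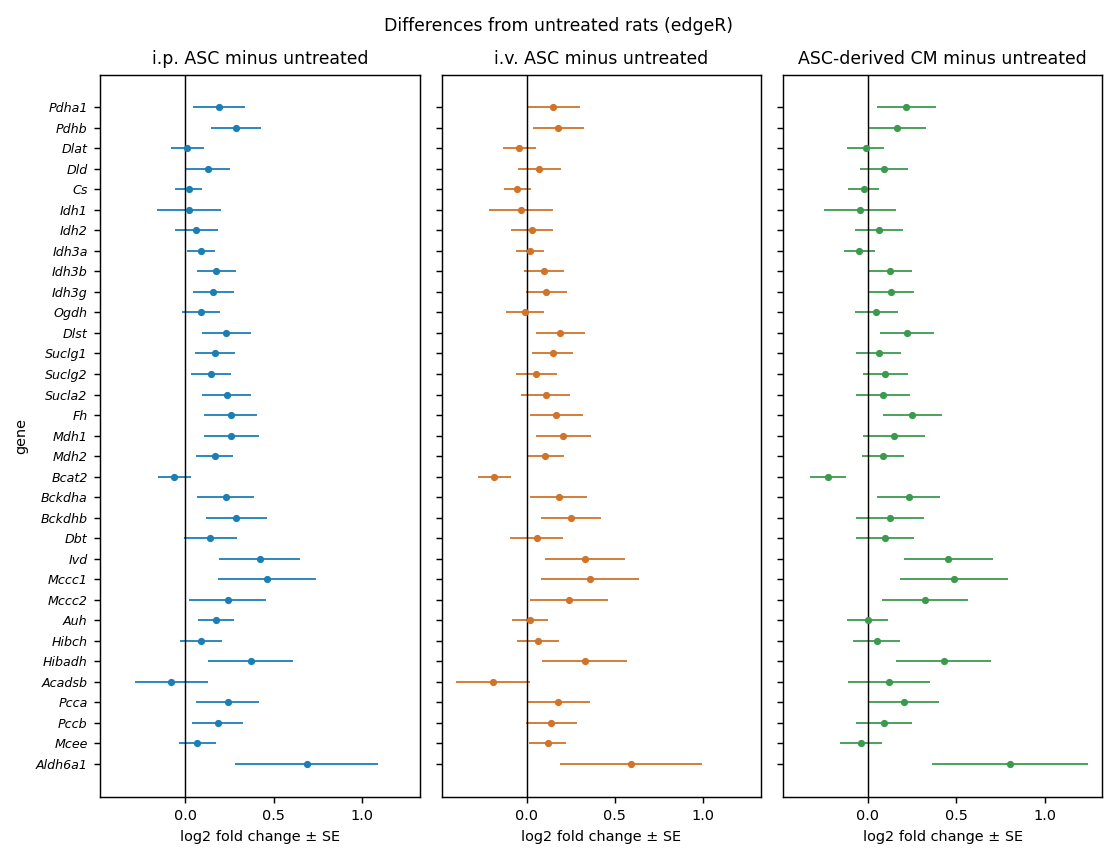
Fitted log2 fold change of each of the 33 genes with its standard error (horizontal line), for i.p. ASC, i.v. ASC and ASC-derived CM minus untreated. Most points lie to the right of 0, none of them past the threshold, Aldh6a1 has the widest errors, and Bcat2 lies to the left in all 3 panels.

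**Figure D3:**
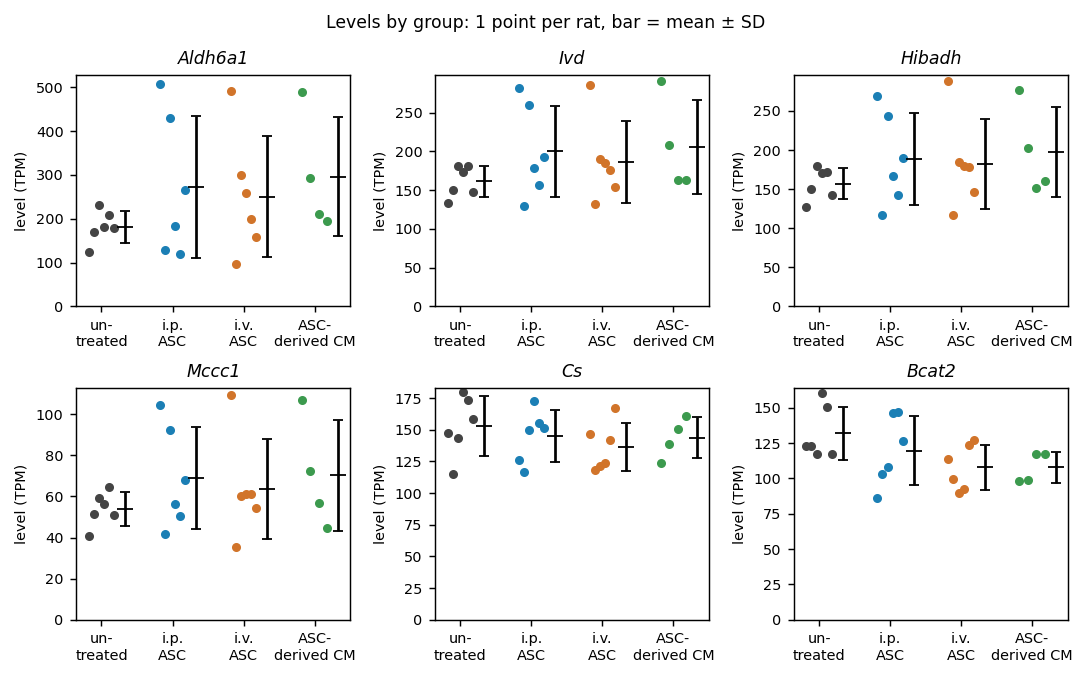
Level in TPM of Aldh6a1, Ivd, Hibadh, Mccc1, Cs and Bcat2 in each rat (points), with the group mean ± SD (bar), in the untreated (n = 6), i.p. ASC (n = 6), i.v. ASC (n = 6) and ASC-derived CM (n = 4) groups. In the first 4 genes a few treated rats sit far above the rest of their own group, while Cs and Bcat2 have no such rats.

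The second comparison asked how the enzyme genes varied with the proximal tubule over rats. Slc34a1, the sodium-phosphate cotransporter NaPi-IIa of the proximal tubule brush border, was used as the measure. It was at 228, 691 and 1156 TPM (lowest, median and highest) in untreated rats, 323, 851 and 1363 TPM after i.p. ASC, and 389, 617 and 1405 TPM after i.v. ASC. The ASC-derived CM rats were at 1195, 658, 840 and 1146 TPM. The groups overlapped widely. A slope here is the log2 change of a gene per log2 unit of Slc34a1, fitted over all 22 rats with group as a term.

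The slope was positive for 32 of the 33 members, with a median of 0.21, against 46.2% of all genes and a median of -0.012. It passed the threshold as positive for 21 members and as negative for 0, while 10.2% of 12866 genes passed as positive and 6.86% as negative. By block, it passed for all 4 pyruvate dehydrogenase genes, 8 of 14 citrate cycle genes and 9 of 15 branched-chain genes.

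These calls did not hold without the rats that stood apart. Without the 4, no member passed, 29 of 33 slopes were positive and the median was 0.069, while 0.426% of genes passed as positive and 0.093% as negative. The 4 were picked by a member's level, and without them the rats are fewer and the range of Slc34a1 narrower. This loss therefore does not show that the relations rested on those rats. Without i.v. ASC rat 1 alone 6 members passed, with 805 genes called instead of 2201. Without i.p. ASC rat 1 alone 14 members passed, with 1343 genes called. The counts were 17 and 1590 without i.p. ASC rat 3, and 21 and 1878 without ASC-derived CM rat 1. With the animal number as a covariate they were 28 and 3987. Within untreated rats alone no member passed, where only 2 of 12113 genes did, and the median slope of the members was 0.072. A test of whether the slope differed between the 4 groups called 0 of 12867 genes by edgeR, with 580 genes and 1 member at an unadjusted p under 0.05; no other tool was run for it.

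Aldh6a1 had the largest slope of the 33, 0.77 (SE 0.15, adjusted p = 0.00202). It was followed by 3 leucine and 1 valine genes, Mccc1 with 0.47 (SE 0.11, adjusted p = 0.0078), Hibadh with 0.42 (SE 0.10, adjusted p = 0.00665), Ivd with 0.39 (SE 0.09, adjusted p = 0.00751) and Mccc2, the other subunit of the leucine carboxylase, with 0.37 (SE 0.09, adjusted p = 0.0106). All of these are branched-chain genes, and all were highest in the 4 rats that stood apart. Without those rats the slopes were 0.43 (SE 0.15, adjusted p = 0.222) for Aldh6a1, 0.18 (SE 0.10, adjusted p = 0.458) for Mccc1, 0.18 (SE 0.09, adjusted p = 0.371) for Hibadh, 0.16 (SE 0.08, adjusted p = 0.379) for Ivd and 0.16 (SE 0.09, adjusted p = 0.474) for Mccc2.

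Hibadh was at 128, 161 and 180 TPM (lowest, median and highest) in untreated rats, 117, 178 and 269 TPM after i.p. ASC, and 117, 179 and 288 TPM after i.v. ASC. The ASC-derived CM rats were at 277, 202, 151 and 160 TPM. Mccc1 was at 40.7, 53.8 and 64.7 TPM in untreated rats, 41.8, 62.3 and 104.6 TPM after i.p. ASC, and 35.5, 60.7 and 109 TPM after i.v. ASC. In both genes the median rats of the 3 groups lay close together, and the high values came from the same few rats. Mccc2 ran from 52.9 to 73.2 TPM with a median of 65.4 TPM in untreated rats, from 45.6 to 101 TPM with a median of 67.9 TPM after i.p. ASC, and from 49.2 to 103 TPM with a median of 68.2 TPM after i.v. ASC. Its ASC-derived CM rats were at 100.1, 77.7, 59.5 and 64.5 TPM. Those of Mccc1 were at 107, 72.5, 56.9 and 44.8 TPM.

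At the other end were Bcat2, with a slope of -0.02 (SE 0.05, adjusted p = 0.862), Mcee, the epimerase that follows propionyl-CoA carboxylase, with 0.04 (SE 0.06, adjusted p = 0.703), Cs with 0.07 (SE 0.04, adjusted p = 0.237) and Idh3a with 0.07 (SE 0.04, adjusted p = 0.214). Mcee was at 64.6, 79.6 and 84.7 TPM (lowest, median and highest) in untreated rats, 63.2, 74.1 and 88.5 TPM after i.p. ASC, 69.4, 78.1 and 91.0 TPM after i.v. ASC, and 77.1, 81.5, 60.0 and 68.0 TPM in the ASC-derived CM rats. Idh3a was at 95.6, 114 and 118 TPM in untreated rats, 88.2, 112 and 125 TPM after i.p. ASC, 88.5, 106 and 117 TPM after i.v. ASC, and 105, 102, 107 and 95.7 TPM in the ASC-derived CM rats. Neither gene had all 4 of the rats that stood apart above the others. The remaining slopes lay between 0.09 for Auh and 0.34 for Acadsb.

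**Figure D4:**
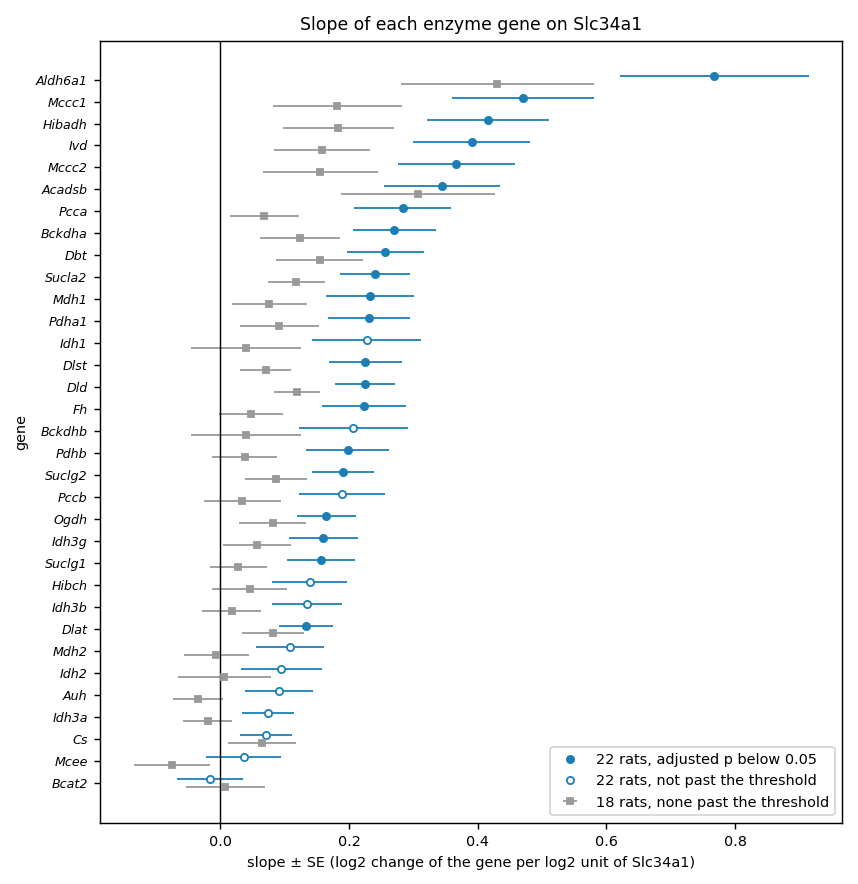
Slope of each of the 33 genes on Slc34a1 (log2 change of the gene per log2 unit of Slc34a1) with its standard error, over 22 rats (circles, filled where the adjusted p is below 0.05) and over the 18 rats without the 4 that stood apart (grey squares). All but Bcat2 are positive over 22 rats, and most slopes are smaller over 18 rats, where none passes.

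Among the 18 remaining rats, 9 correlations with Slc34a1 were computed on log2(TPM + 1). The 9 genes were chosen for the largest and the smallest slopes on Slc34a1 over all 22 rats, which include these 18. A higher r in the former than in the latter is therefore in part set by that choice. The permutation p-values do not allow for it and are no independent test of the slopes. No r is given over all 22 rats, because the 4 rats stood apart in Aldh6a1. Leaving them out cuts the range of that gene. In Cs, Bcat2, Idh3a and Mcee the 4 rats were neither all above nor all below the 18. For Aldh6a1, Pearson's r was 0.66 (permutation p = 0.0032) and Spearman's rho 0.63 (permutation p = 0.00658), and r without the 2 rats farthest from the median of Slc34a1 was 0.53 (permutation p = 0.0341). For Ivd r was 0.61 (permutation p = 0.00765) and rho 0.55 (permutation p = 0.0191), and for Hibadh 0.60 (permutation p = 0.00942) and 0.55 (permutation p = 0.0197). Both kept r above 0.50 without the 2 farthest rats, at 0.52 and 0.51. For Mccc2 r was 0.56 (permutation p = 0.0161) and rho 0.48 (permutation p = 0.0436), and for Mccc1 0.49 (permutation p = 0.042) and 0.44 (permutation p = 0.0673). Without the 2 farthest rats these fell to 0.46 and 0.35 (permutation p = 0.0756 and 0.183), no longer with a p below 0.05. With 16 rats and a narrower range of Slc34a1, this does not show that the relations rested on those rats. For Cs, Bcat2, Idh3a and Mcee r was 0.32, 0.04, -0.01 and -0.23 (permutation p = 0.192, 0.87, 0.973 and 0.371), with rho of 0.41, 0.02, -0.02 and -0.17 (permutation p = 0.0929, 0.941, 0.948 and 0.488). Without the 2 farthest rats r was 0.53 for Cs (permutation p = 0.0387), as large as that of Aldh6a1, and 0.27, 0.37 and -0.18 for Bcat2, Idh3a and Mcee (permutation p = 0.308, 0.161 and 0.507). Adjusted over all genes, as given above for the 18 rats, none of the 9 passed.

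High Slc34a1 did not always go with high Aldh6a1. Untreated rat 4 and ASC-derived CM rat 4 had 1156 and 1146 TPM of Slc34a1, as high as the 1147 TPM of i.p. ASC rat 3, yet had 181 and 194 TPM of Aldh6a1 against 430 TPM in that rat.

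**Figure D5:**
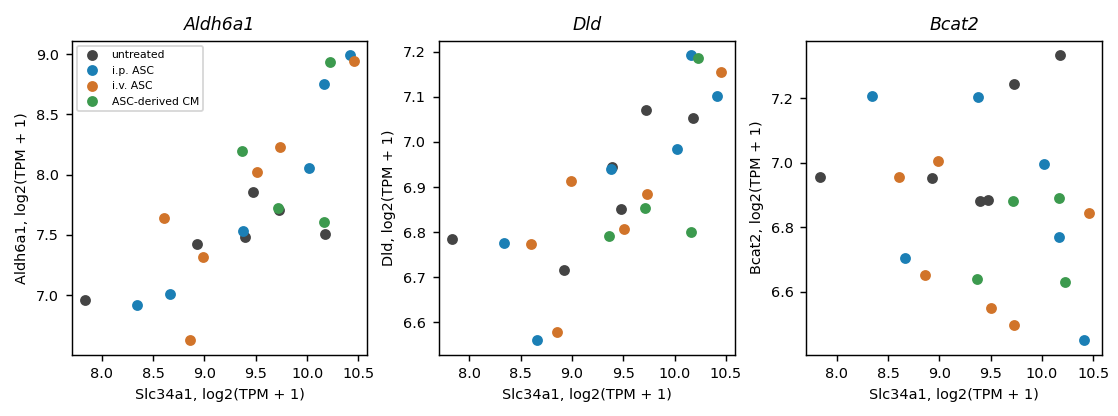
Levels of Aldh6a1, Dld and Bcat2 against Slc34a1, all as log2(TPM + 1), with 1 point per rat coloured by group. Aldh6a1 and Dld climb to the right, with 4 rats at the top right in Aldh6a1, while Bcat2 shows no trend.

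Other markers moved with Slc34a1 too. Of the other 8 proximal tubule markers, 5 had a positive slope past the threshold, among them the endocytic receptors Lrp2 (0.74, SE 0.11, adjusted p = 0.000274) and Cubn (0.49, SE 0.09, adjusted p = 0.00103), while Slc5a2, Slc5a12 and Slc7a7 had slopes of 0.07, -0.06 and -0.14 (adjusted p = 0.875, 0.895 and 0.504). With the mean of the other proximal tubule markers in place of Slc34a1, no member passed, 23 of 33 slopes were positive and the median was 0.068, where 1.03% of genes passed as positive and 0.762% as negative. Negative slopes passed for 2 of 3 fibroblast markers, 2 of 4 leukocyte markers and 2 of the 3 tested markers of injured proximal tubule. Of the 2 tested adipocyte markers, Cidec, a lipid droplet protein, passed with a slope of 1.18 (SE 0.33, adjusted p = 0.0188), while Adipoq was at -0.26 (SE 0.09, adjusted p = 0.0552). None of the 4 thick ascending limb markers passed. With that segment's markers as a second covariate, 16 members had a positive slope past the threshold and 0 a negative one, where 8.52% and 4.97% of genes did, and the median was 0.17. In the same fit the slopes on the thick ascending limb markers were positive for 32 of 33 members, with a median of 0.21. None of these passed (smallest adjusted p = 0.0501), where 2.49% of genes passed as positive and 1.91% as negative, and 15 had an unadjusted p under 0.05. None of the markers of these lists was at 0 in every rat.

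The summed proximal tubule markers ran from 1963 to 2506 TPM in the 4 rats that stood apart and from 778 to 2439 TPM in the other 18. The summed leukocyte markers ran from 35.9 to 85.4 TPM in the 4 and from 88.1 to 217 TPM in the 18, and the fibroblast markers from 46.3 to 76.9 TPM and from 59.0 to 213 TPM. The summed adipocyte markers ran from 73.6 to 86.9 TPM in the 4 and from 23.6 to 73.1 TPM in the 18, with Cidec at 48.9 to 65.8 TPM and 3.24 to 43.4 TPM, while Plin1 stayed under 1 TPM in every rat. By group, the leukocyte sum was 108 to 168 TPM in untreated rats, 74.0 to 192 TPM after i.p. ASC, 35.9 to 204 TPM after i.v. ASC and 69.2 to 217 TPM after ASC-derived CM. The proximal tubule sum by group was 891 to 2312, 854 to 2506, 778 to 2489 and 1185 to 2439 TPM in the same order. The rats highest in Aldh6a1 were thus also low in leukocyte markers. The sums of the remaining lists overlapped between the 4 and the 18. In that order, podocyte markers ran from 45.9 to 118 TPM and from 46.8 to 316 TPM. Endothelium markers ran from 53.25 to 64.6 TPM and from 37.9 to 133 TPM. Distal tubule markers ran from 349 to 674 TPM and from 337.5 to 1631 TPM. Thick ascending limb markers ran from 2833 to 5344 TPM and from 1305 to 4032 TPM. Collecting duct markers ran from 749 to 1442 TPM and from 1009 to 2403 TPM. Red blood cell markers ran from 99.0 to 518 TPM and from 46.6 to 1100 TPM. Injured proximal tubule markers ran from 6533 to 8909 TPM and from 6746 to 14810 TPM. Urothelium markers ran from 2.00 to 323 TPM and from 1.95 to 542 TPM. Their high sums were in i.v. ASC rats 1, 3 and 5, at 323, 542 and 125 TPM. The part of leukocyte, fibroblast, adipocyte, podocyte, endothelium, distal tubule, collecting duct, red blood cell and urothelium content in the slopes was not tested.

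Of 54 other genes of these pathways, 52 were found and tested, and none passed in a treatment comparison. Their slopes on Slc34a1 passed as positive for 28 and as negative for 1, where 10.2% of all 12866 genes passed as positive and 6.86% as negative. The largest were those of Slc13a2, the apical citrate and dicarboxylate cotransporter, with 1.15 (SE 0.17, adjusted p = 0.000359), and Pck1, the cytosolic phosphoenolpyruvate carboxykinase of gluconeogenesis, with 1.11 (SE 0.12, adjusted p = 1.17e-05). Without the 4 rats that stood apart they were 0.85 (SE 0.21, adjusted p = 0.0797) and 1.07 (SE 0.15, adjusted p = 0.00198), so that of Pck1 still passed.

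The smallest slopes were those of Bcat1, the cytosolic counterpart of Bcat2, with -0.25 (SE 0.19, adjusted p = 0.377), and Slc7a5, the large neutral amino acid transporter that carries branched-chain amino acids across the membrane, with -0.18 (SE 0.05, adjusted p = 0.0322). Without the 4 rats Slc7a5 was at -0.12 (SE 0.06, adjusted p = 0.454). Slc7a5 was low throughout, at 4.98 to 9.93 TPM over the 22 rats. Bcat1 was at 3.43 to 6.98 TPM in untreated rats and at 2.39 to 16.4 TPM after i.v. ASC, where its log2 change was 0.93 (SE 0.34, adjusted p = 0.523). Over all rats the mitochondrial enzyme gene was at 118 ± 20.3 TPM (SD, n = 22) and the cytosolic one at 5.80 ± 3.01 TPM (SD, n = 22).

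Genes whose products form 1 enzyme were also compared with each other over the 18 rats, in 9 pairs adjusted together by the Benjamini-Hochberg method. Pairs of genes from different enzymes were not compared, so whether these relations are closer than those of other members was not tested. Mccc1 and Mccc2 were closest, with r = 0.84 (permutation p = 3e-05, adjusted 0.000135) and rho = 0.85 (permutation p = 2e-05, adjusted 0.00018). Their levels were nearly equal, with a TPM ratio of 0.90 ± 0.11 over all 22 rats (SD, n = 22). Pdha1 and Pdhb had r = 0.79 (permutation p = 3e-05, adjusted 0.000135) and rho = 0.76 (permutation p = 0.00044, adjusted 0.00198), and Pcca and Pccb, the subunits of propionyl-CoA carboxylase, r = 0.75 (permutation p = 0.00033, adjusted 0.00099) and rho = 0.70 (permutation p = 0.00197, adjusted 0.00443). Over all 22 rats, Pcca was at 0.24 ± 0.02 of the TPM of Pccb (SD, n = 22), a stable but unequal ratio.

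For the branched-chain ketoacid dehydrogenase, Bckdha went with Bckdhb at r = 0.65 (permutation p = 0.00428, adjusted 0.00642) and rho = 0.55 (permutation p = 0.0207, adjusted 0.031), and with its core subunit Dbt at r = 0.70 (permutation p = 0.00104, adjusted 0.00223) and rho = 0.66 (permutation p = 0.00364, adjusted 0.00655). Without the 2 rats farthest from the median of Bckdha, the relation with Dbt fell to r = 0.48 (permutation p = 0.0621), no longer with a p below 0.05. Pdha1 and Dlat had r = 0.70 (permutation p = 0.00124, adjusted 0.00223) but rho = 0.39 (permutation p = 0.113, adjusted 0.127), and r without the 2 farthest rats was 0.29 (permutation p = 0.28).

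Suclg1, the alpha subunit of both succinyl-CoA synthetases, went with the ATP-forming beta subunit Sucla2 at r = 0.63 (permutation p = 0.00502, adjusted 0.00645) and rho = 0.71 (permutation p = 0.00136, adjusted 0.00408). With the GTP-forming beta subunit Suclg2 it had r = 0.38 (permutation p = 0.125, adjusted 0.141) and rho = 0.45 (permutation p = 0.0616, adjusted 0.0792). The difference between these correlations was not tested. Idh3a and Idh3g showed no relation past the threshold, with r = 0.15 (permutation p = 0.547, adjusted 0.547) and rho = 0.12 (permutation p = 0.644, adjusted 0.644). Over all 22 rats, Idh3a was at 0.46 ± 0.06 of the TPM of Idh3g (SD, n = 22).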

How the data were processed

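Total RNA of whole left kidneys was sequenced on the BGISEQ-500 platform by the authors. They deposited 2 values per gene and rat, an estimated count without normalization and a TPM value. The submitters' processing notes name Trim Galore 0.6.4, kallisto 0.4.6 and the rat build rn6. The paper's text names a human transcript package and DESeq2, whereas rat Entrez identifiers stand in the files, and the transcript annotation is not given in the sources used here. Reads shared between paralogs were split by the authors' counting, so levels of genes with near copies are uncertain.

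The estimated counts were rounded, since 14.1% were not whole. Symbols were matched for 17179 of 17334 genes through the RefSeq gene table of GRCr8, used for names only. The test was the quasi-likelihood F test of edgeR 4.0.16 (R 4.3.3), with TMM factors, filterByExpr and the 4 groups together, with Benjamini-Hochberg adjustment over all genes and a threshold of 0.05. The slope on log2(Slc34a1 TPM + 1) used the same counts. Other settings were RLE size factors, DESeq2 1.42.0, all genes unfiltered, at least 10 counts in every rat, limma-trend (limma 3.58.1) on log2(TPM + 1) and log2(TPM + 0.5), the animal number or Slc34a1 as a covariate, only 2 groups in the fit, no group term, other marker sets and the omission of each rat. Log2 CPM used a prior count of 2. Correlations used two-sided permutation tests with 100000 resamples in scipy 1.17.1 (Python 3.11.15). They were planned over 22 rats and are given over 18. The procedure was run on simulated counts, in which chosen genes changed after i.p. ASC or followed Slc34a1 and the rest varied independently. Other differences between rats that many genes share were not simulated, and no result above rests on this run. Replicates all differed by more than counting error. Precision is limited by 4 to 6 rats a group.

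The members, lists, marker genes and tests were chosen with earlier results of these data known. Without the 4 rats, the slope per group and 3 promoter motifs were settings added after the data were seen. The genes named with values were, in each comparison, the 3 members with the smallest p, the 5 with the largest and the 4 with the smallest slope, the highest and lowest mean level of each block, and of the other pathway genes the 2 largest and 2 smallest slopes. Lrp2, Cubn, Slc5a2, Slc5a12, Slc7a7, Cidec, Adipoq, Plin1, Pccb, Acadsb, Dld, Dlst, Ogdh, Idh2, Mdh2, Idh3b, Idh3g, Pcca, Bckdha, Dbt, Suclg1 and Suclg2 fall outside this rule and are named as markers, subunits or variable members after their values were seen.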

Additional observations from a re-analysis of the deposited data

Results flagged for a closer look

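Each of the 33 genes was examined in each of the 4 groups, 132 sets in all, for a rat lying apart from the others of its group by Dixon's criterion at the 95% level. Such a rat was found in 9 sets, where about 1 in 20, or 6.6, would be flagged by chance. The 33 genes were measured in the same rats, so the sets are not independent and 9 cannot be weighed against 6.6. In i.p. ASC rat 2 the low values were Dlat at 37.2 TPM (49.1 to 54.6 TPM in the other rats of the group), Idh2 at 277 TPM (361 to 413 TPM), Idh3a at 88.2 TPM (110 to 125 TPM) and Ogdh, the E1 subunit of the α-ketoglutarate dehydrogenase, at 122 TPM (184 to 206 TPM). In untreated rat 2 Idh3a was low at 95.6 TPM (112 to 118 TPM). High values were those of ASC-derived CM rat 1, with Dld at 145 TPM (110 to 115 TPM) and Dlst, the core subunit of the α-ketoglutarate dehydrogenase, at 197 TPM (145 to 152 TPM), and of i.v. ASC rat 1, with Suclg1 at 453 TPM (325 to 346 TPM) and Mdh2 at 421 TPM (330 to 350 TPM). These last rats are among the 4 highest in Aldh6a1. Aldh6a1 itself met the criterion in no group.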

How the results depend on the processing

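No paired analysis was possible because no animal occurs in more than 1 group and the labels give animal numbers, not shared replicate numbers. In the treatment comparisons, no member was called under any alternative. DESeq2 called 22, 5 and 21 of all genes for i.v. ASC, ASC-derived CM and i.v. minus i.p. ASC, and 1 gene was called for ASC-derived CM with only the 2 groups in the fit. The member median was -0.015 for i.v. ASC with the animal number as a covariate, and without the 4 rats that stood apart it was -0.004 for i.p. ASC and -0.04 for ASC-derived CM, where the median between the routes turned to 0.032 and Sucla2 there to 0.032. Leaving out each rat in turn gave 0 to 14 genes for i.v. ASC and 0 to 13 between the routes (11 and 13 without i.v. ASC rat 2, 14 and 13 without i.v. ASC rat 6), and member medians of -0.043 to 0.168 for ASC-derived CM, the lowest without its rat 1. Between the routes the medians were -0.162 to 0.017, above 0 without i.p. ASC rat 1 (0.017) and without i.p. ASC rat 3 (0.008). The median was -0.008 for ASC-derived CM with Slc34a1 as a covariate and -0.006 for i.v. ASC on log2(TPM + 1) and log2(TPM + 0.5).

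For the slope, the genes called were 3987 with the animal number as a covariate, 230 with the other proximal tubule markers, 2 in untreated rats only and 67 without the 4 rats, with 0 members in the last 3 and member medians of 0.068, 0.072 and 0.069. Leaving out each rat gave 805 to 2808 genes and 6 to 23 members. Small slopes changed sign: Idh3a to -0.001 in untreated rats and -0.02 without the 4 rats, Mcee to -0.14 with the other markers and -0.075 without the 4, and Bcat2 to 0.095 in untreated rats and 0.007 without the 4, with -0.044 to 0.023 as each rat was left out. The correlation of Mccc1 was 0.455 on log2 CPM and 0.35 without the 2 farthest rats. Without these 2 that of Mccc2 was 0.455, Cs 0.527, Idh3a 0.368, Bckdha with Dbt 0.477, Pdha1 with Dlat 0.286 and Idh3a with Idh3g -0.063. Idh3a was at 0.041 with group means removed and Bcat2 at -0.151 on log2 CPM. The causes were not tested.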
